A study of Homo sapiens with 12 samples.

Results

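The AP-1 subunits described here are 8 genes, taken from the list FOS, FOSB, FOSL1, FOSL2, JUN, JUNB, JUND and BATF3, out of 19775 genes that the arrays measured under a single symbol. They encode basic leucine zipper proteins of the FOS family (4 genes), the JUN family (3 genes) and the BATF family (1 gene). The genes have 18 probe sets between them, and each gene is read from the probe set with its highest mean over all arrays unless another is named. Values are log2 signals after GCRMA, so a difference of 1 is a 2-fold difference, and levels are compared between arrays within a probe set. Levels of different probe sets are not ranked against each other.

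The cells are HK-2, an established line of human kidney proximal tubule cells that was immortalised with papillomavirus genes, and each group holds 3 arrays of the same line. The groups are HK-2 cells exposed to CsA for 48 h, control cells at 48 h, cells exposed to CsA for 12 h, and control cells at 12 h. CsA is read here as cyclosporine A, the calcineurin inhibitor and nephrotoxic immunosuppressant, and its concentration was not given in the sources used here. All 4 groups were seeded 24 h before exposure and brought to about 90% confluence in a medium that held epidermal growth factor at 10 ng/ml, insulin at 5 µg/ml and hydrocortisone at 36 ng/ml. Arrays carry numbers 1 to 3 in each group, and CsA and control arrays of the same number deviated together within each time, so they are also described as numbered pairs.

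AP-1 is a dimer. JUN proteins pair with each other or with FOS proteins, FOS proteins need a JUN partner, and the dimers bind the motif TGACTCA and, with ATF partners, the related motif TGACGTCA. FOS, FOSB and JUNB are classic immediate early genes that growth factors and stress switch on for a short time, FOSL1 (FRA-1) and FOSL2 (FRA-2) follow later and lack the strong activation domain of FOS, and JUND is present in resting cells. In T cells AP-1 binds composite sites together with NFAT, the factors whose nuclear entry calcineurin allows and cyclosporine A blocks. In kidney tubule cells AP-1 subunits are known as responders to growth factors, oxidants and injury, and glucocorticoids are known to restrain AP-1 activity.

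Several of these genes carry AP-1-like or CREB-like motifs in their own promoters, and 4 promoters are shown because their motifs differ in kind between the members. They come from the RefSeq annotation of GRCh38.p14, which listed a promoter for 6 of the 8 genes. Each line runs 5′ to 3′ on the gene's strand from 250 bases before the first transcribed base to 30 bases after it, and capitals mark matches, on either strand, to the AP-1 motif TGACTCA, its CREB-type relative TGACGTCA, the shorter TGACGT and the variant TGACATCA. The FOS promoter lies on the plus strand at chr14:75278578-75278857, FOSL2 on the plus strand at chr2:28392608-28392887, JUN on the minus strand at chr1:58784018-58784297 and JUND on the minus strand at chr19:18281593-18281872.
FOS: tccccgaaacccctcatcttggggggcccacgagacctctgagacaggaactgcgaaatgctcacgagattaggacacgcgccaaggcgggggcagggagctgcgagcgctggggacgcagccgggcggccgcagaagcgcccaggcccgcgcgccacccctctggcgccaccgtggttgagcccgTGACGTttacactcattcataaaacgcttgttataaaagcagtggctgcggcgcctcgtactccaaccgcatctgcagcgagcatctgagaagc
FOSL2: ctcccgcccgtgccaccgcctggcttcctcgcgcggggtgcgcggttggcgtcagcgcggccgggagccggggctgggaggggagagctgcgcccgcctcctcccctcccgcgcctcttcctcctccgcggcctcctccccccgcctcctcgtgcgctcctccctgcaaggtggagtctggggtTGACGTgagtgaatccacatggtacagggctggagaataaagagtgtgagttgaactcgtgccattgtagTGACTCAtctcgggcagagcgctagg
JUN: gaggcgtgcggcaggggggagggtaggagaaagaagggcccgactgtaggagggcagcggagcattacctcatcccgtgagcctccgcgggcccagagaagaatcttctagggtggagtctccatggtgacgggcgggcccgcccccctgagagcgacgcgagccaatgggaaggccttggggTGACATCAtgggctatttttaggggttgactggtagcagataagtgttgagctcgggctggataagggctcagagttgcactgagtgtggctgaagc
JUND: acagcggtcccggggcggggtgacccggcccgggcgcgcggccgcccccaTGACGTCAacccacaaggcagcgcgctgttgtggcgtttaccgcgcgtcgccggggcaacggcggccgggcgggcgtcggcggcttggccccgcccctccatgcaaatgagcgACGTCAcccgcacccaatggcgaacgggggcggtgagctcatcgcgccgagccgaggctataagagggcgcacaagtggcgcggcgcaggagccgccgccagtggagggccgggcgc
FOS held TGACGT 64 bases before the first transcribed base, and FOSL2 held the same letters 66 bases before it. FOSL2 was the only one of the 6 members with the AP-1 motif TGACTCA, at base 5 of its transcript. JUN held TGACATCA, a variant known to be bound by JUN with ATF2, 67 bases before the start, and JUND held the palindrome TGACGTCA, which contains TGACGT on both strands, 200 bases before the start, and the shorter motif on the other strand 87 bases before it. FOSB, not printed, held TGACGT 60 bases before its start, and JUNB held none of these motifs. Among 35116 promoters of 300 bases searched on both strands, 4.95% held TGACTCA, 1.85% TGACGTCA, 7.98% TGACGT and 2.61% TGACATCA. A match is a description of the letters and no measure of binding.

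The 12 arrays were alike in scale, with median signals of 2.85 to 2.96 and 38.3% to 38.8% of probe sets above 4, the level used as the filter. The arrays at 48 h spread more than those at 12 h: the median SD of a gene was 0.284 in CsA at 48 h and 0.211 in control at 48 h, against 0.116 in CsA at 12 h and 0.123 in control at 12 h. Of 10 proximal tubule markers measured, PAX8 alone was above 4 on all arrays and 9 were below 4 on all arrays, while all 5 epithelial markers were above 4 on all arrays. Of the markers of other cell types, all 4 leukocyte genes measured were below 4 on every array, and 1 of 5 endothelial (PECAM1), 2 of 6 fibroblast (COL1A1, DCN) and 1 of 4 distal nephron genes (AQP2) were above 4 on every array. AQP2 (4.23 to 4.57) and PECAM1 (4.38 to 5.08) were near the filter, while COL1A1 (7.20 to 7.94) and DCN (7.67 to 9.97) were well above it. Over these 12 arrays 10508 genes passed the filter, being above 4 on all 3 arrays of at least 1 group, and were tested together with limma, and p-values were adjusted over all of them by the Benjamini-Hochberg method. In bulk RNA a lower level in every cell and a smaller share of expressing cells cannot be told apart.

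Of the 8 subunits, 6 passed the filter: FOSL1, FOSL2, JUN, JUNB, JUND and BATF3. FOS and FOSB did not, and were below 4 on all 12 arrays. The clearest difference among the subunits was with time and not with CsA: FOSL1 fell at 48 h relative to 12 h, under CsA and in control alike. No subunit was called different between CsA and control at either time.

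FOS, the founding member of the family and the partner of JUN in the classic AP-1 dimer, read 2.33, 2.35 and 2.34 in CsA at 48 h and 2.33, 2.35 and 3.22 in control at 48 h. At 12 h it read 2.34, 2.38 and 2.33 in CsA and 2.49, 2.44 and 2.30 in control. The single value that stood apart was control replicate 3 at 48 h, the array that was also highest for JUN, and it was still below the filter. FOSB, which in other tissues is induced together with FOS, read 2.25, 2.26 and 2.41 in CsA at 48 h and 2.25, 2.26 and 2.26 in control at 48 h, and between 2.23 and 2.27 on the 6 arrays at 12 h. Neither gene was tested, and no difference is read from values below the filter.

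FOSL1 encodes FRA-1, a subunit known to be raised by growth factor signalling and to be a target of AP-1 itself. It read 4.49, 5.66 and 6.49 in CsA at 48 h and 8.51, 7.97 and 8.37 in CsA at 12 h. In control it read 4.86, 5.82 and 6.30 at 48 h and 8.43, 8.11 and 8.57 at 12 h. All 6 arrays at 48 h were below all 6 arrays at 12 h, and the numbered arrays kept the same order in both groups at 48 h, with replicate 1 lowest and replicate 3 highest.

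The mean of FOSL1 was 5.55 ± 1.00 in CsA at 48 h and 8.28 ± 0.28 in CsA at 12 h, and 5.66 ± 0.73 in control at 48 h and 8.37 ± 0.24 in control at 12 h (SD, n = 3 each). The log2 difference between 48 h and 12 h was -2.74 under CsA (SE 0.47), a 6.66-fold lower signal, with an adjusted p of 0.0070 by limma. In control it was -2.71 (SE 0.47), a 6.55-fold lower signal, with an adjusted p of 0.0041 by limma. The call held in every alternative tried, with adjusted p by limma from 0.0012 to 0.033 under CsA and from 8.4e-04 to 0.021 in control. FOSL1 has only 1 probe set, 204420_at, so the alternatives that change the probe set could not alter its signal. FOSL1 was thus 1 of the 6 tested subunits called lower with time, where 7.58% of all genes tested were called lower under CsA and 13.7% in control. Called higher with time were 0 of the 6, where 6.77% of all genes were under CsA and 12.5% in control. FOSL1 was called lower in both, as were 6.5% of all genes tested.

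**Figure D1:**
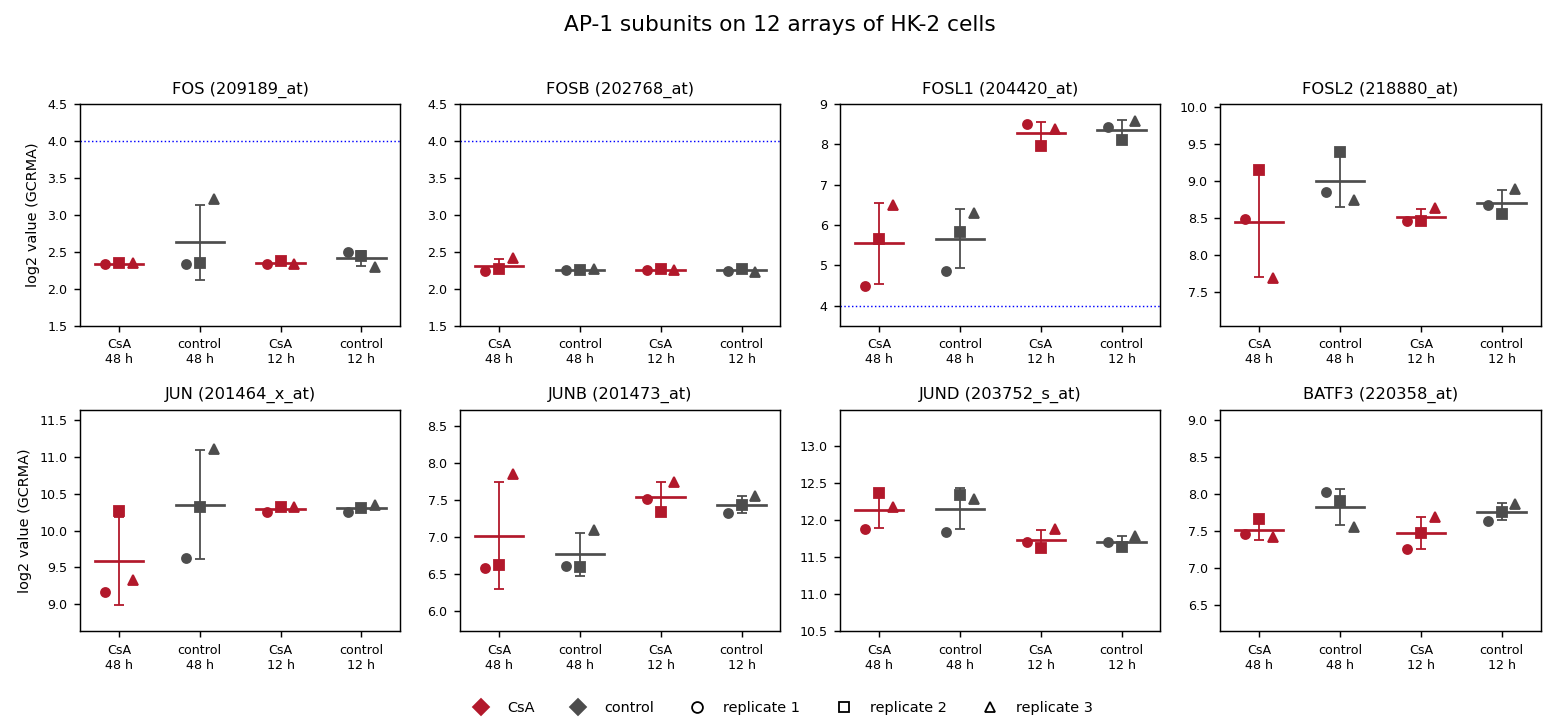
Log2 signal (GCRMA) of each AP-1 subunit on each of the 12 arrays, with a point per array, a bar at the group mean, whiskers of 1 SD and groups ordered CsA 48 h, control 48 h, CsA 12 h, control 12 h; the vertical axis differs between panels and the dotted line marks the filter at 4. FOS and FOSB lie below 4 throughout, FOSL1 is lower on all 6 arrays at 48 h than on any at 12 h, and JUN spreads widely at 48 h, up to 11.10 in control replicate 3.

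FOSL2 encodes FRA-2, the other late member of the FOS family, and its reading depended on the probe set. On 218880_at, its brightest, it read 8.49, 9.16 and 7.69 in CsA at 48 h and 8.46, 8.46 and 8.64 in CsA at 12 h. In control this probe set read 8.86, 9.40 and 8.75 at 48 h and 8.68, 8.56 and 8.90 at 12 h. The times overlapped in both groups, and the log2 differences of -0.07 under CsA (SE 0.31, adjusted p = 0.89 by limma) and 0.29 in control (SE 0.31, adjusted p = 0.50 by limma) did not pass the test.

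A different probe set of FOSL2, 228188_at, behaved otherwise. It read 6.88, 7.63 and 7.83 in CsA at 48 h and 9.08, 8.93 and 9.07 in CsA at 12 h. In control it read 7.04, 7.58 and 7.23 at 48 h and 9.14, 9.16 and 9.16 at 12 h. All arrays at 48 h were below all arrays at 12 h, and in a limma fit of 18508 probe sets the log2 difference was -1.58 under CsA (SE 0.22, adjusted p = 0.0047) and -1.87 in control (SE 0.22, adjusted p = 0.0013).

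The 5 probe sets of FOSL2 ran along a range. Besides 228188_at, 225262_at differed by -1.13 under CsA and -1.14 in control (adjusted p = 0.096 and 0.070 by limma), and 218881_s_at by -0.55 and -0.72 (adjusted p = 0.15 and 0.054 by limma). The log2 difference of 205409_at was -0.11 under CsA and 0.21 in control (adjusted p = 0.84 and 0.65 by limma). In the same fit 6.65% of probe sets were called lower at 48 h under CsA and 12.5% in control, against 1 of the 5 FOSL2 probe sets in each. Which transcripts or parts of the transcript each probe set matches was not tested.

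**Figure D2:**
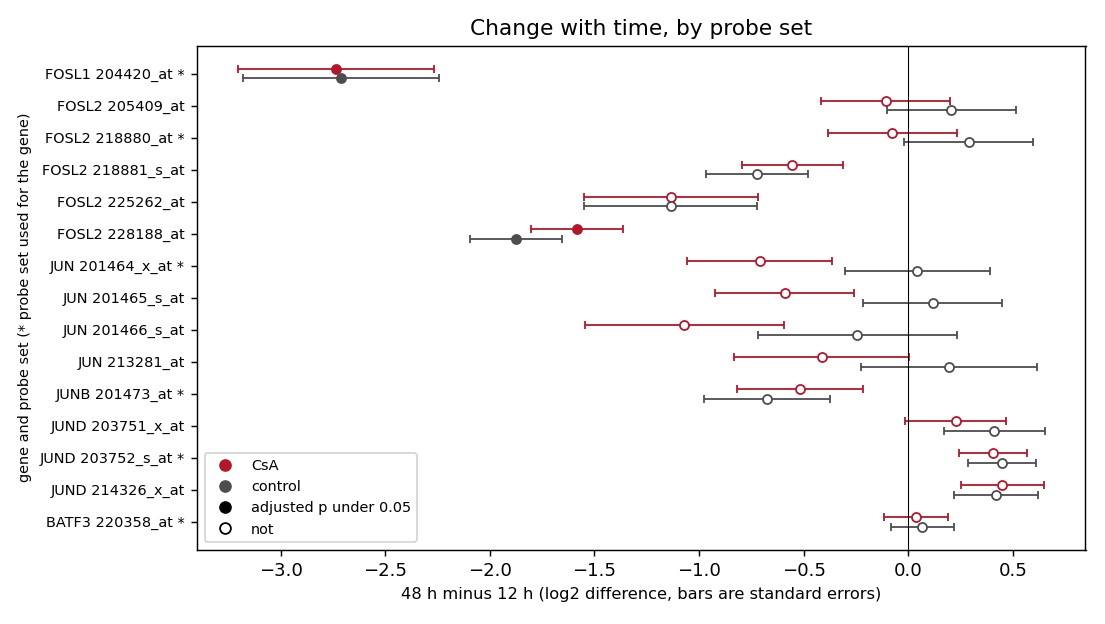
Log2 difference between 48 h and 12 h for each probe set of the tested AP-1 subunits, under CsA and in control, with bars for the standard error of the limma fit of 18508 probe sets; filled points have an adjusted p under 0.05 and an asterisk marks the probe set used for the gene. FOSL1 and the FOSL2 probe set 228188_at lie furthest below 0, while the FOSL2 probe set 218880_at lies near 0 in both.

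The unequal change of these probe sets was also measured within each array, where scaling of the array cancels. The signal of 228188_at minus that of 218880_at was -1.61, -1.53 and 0.13 in CsA at 48 h and 0.62, 0.47 and 0.43 in CsA at 12 h. In control it was -1.82, -1.82 and -1.52 at 48 h and 0.46, 0.60 and 0.26 at 12 h. Within an array the mean of this measure was different by -1.51 log2 units in CsA and by -2.16 in control, as 48 h minus 12 h, and no 48 h array overlapped the 12 h arrays. These probe sets were set side by side after their changes with time were seen, so the values are a description with no test. Replicate 3 of CsA at 48 h stood nearest the 12 h arrays in this measure, and it was also the array with the lowest 218880_at signal of all 12.

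**Figure D3:**
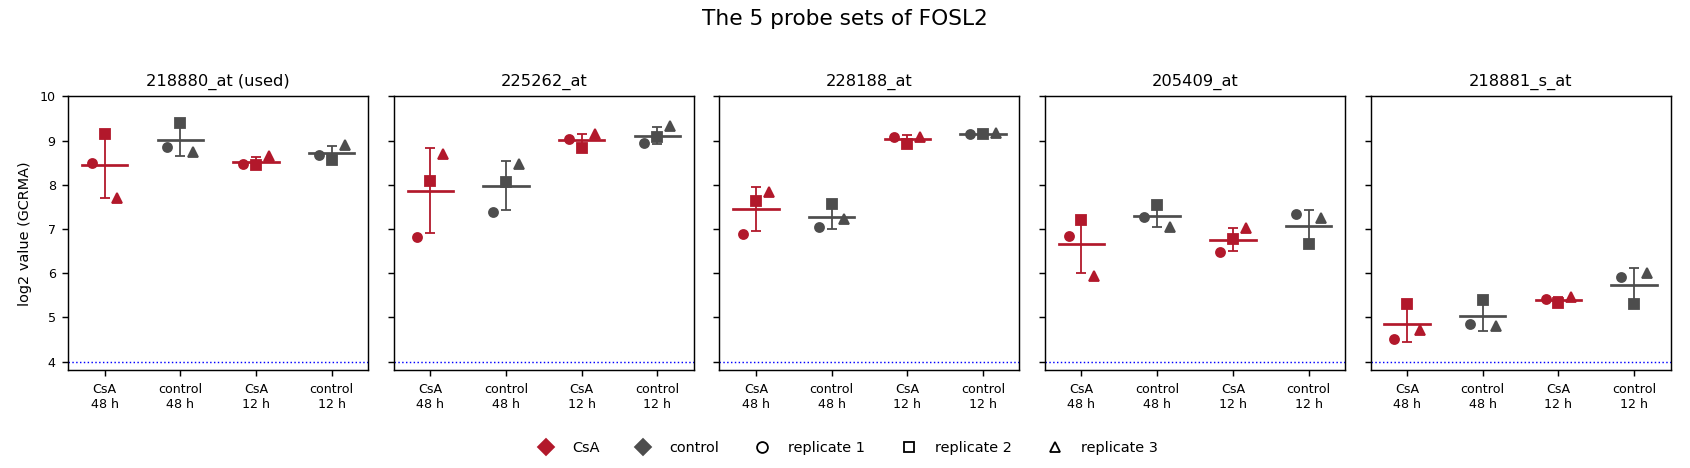
Log2 signal of the FOSL2 probe sets on each array, with groups ordered CsA 48 h, control 48 h, CsA 12 h, control 12 h, symbols for the replicate number, bars at the mean and whiskers of 1 SD. At 48 h 228188_at is below every 12 h array, while 218880_at overlaps between the times.

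In the JUN family, JUN is the subunit that carries the strongest activation domain and is switched on by JUN N-terminal kinases. It read 9.17, 10.26 and 9.33 in CsA at 48 h and 9.62, 10.32 and 11.10 in control at 48 h. At 12 h it read 10.25, 10.32 and 10.32 in CsA and 10.26, 10.31 and 10.35 in control. The 6 arrays at 48 h spread between 9.17 and 11.10, whereas those at 12 h lay between 10.25 and 10.35.

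For JUN the log2 difference between 48 h and 12 h was -0.71 under CsA (SE 0.35, adjusted p = 0.18 by limma) and 0.04 in control (SE 0.35, adjusted p = 0.94 by limma), so neither passed. The probe set used, 201464_x_at, and 2 others of JUN carry suffixes that mark probes shared between transcripts, so their signal may not be of JUN alone. Control replicate 3 at 48 h gave the highest signal of the 12 arrays on all 4 JUN probe sets, as it did for 7.19% of all genes tested and for the immediate early genes EGR1 and CCN1 (2 of the 12 tested).

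JUNB, which can oppose JUN at some genes, read 6.59, 6.62 and 7.86 in CsA at 48 h and 7.52, 7.34 and 7.75 in CsA at 12 h. In control it read 6.60, 6.59 and 7.10 at 48 h and 7.32, 7.43 and 7.56 at 12 h. Control arrays at 48 h were all below those at 12 h, while under CsA replicate 3 at 48 h was the highest of all 12 arrays, as it was for 11.0% of all genes tested. The log2 difference between 48 h and 12 h was -0.52 under CsA (SE 0.30, adjusted p = 0.25 by limma) and -0.68 in control (SE 0.30, adjusted p = 0.12 by limma). Without CsA replicate 3 at 48 h these were -0.94 (adjusted p = 0.0038) and -0.68 (adjusted p = 0.0083) by limma, so 1 array decided whether JUNB passed. Leaving out that array also raised the count over all 10508 genes. It went from 1508 to 3885 called under CsA and from 2756 to 4039 in control, so the shift was not particular to JUNB.

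JUND, the subunit typical of resting cells and measured here by a probe set with such a suffix, read 11.87, 12.36 and 12.18 in CsA at 48 h and 11.70, 11.62 and 11.87 in CsA at 12 h. In control it read 11.83, 12.33 and 12.29 at 48 h and 11.70, 11.63 and 11.78 at 12 h. The control arrays at 48 h were above all control arrays at 12 h, and under CsA the lowest array at 48 h and the highest at 12 h overlapped. The log2 difference was 0.41 under CsA (SE 0.16, adjusted p = 0.11 by limma) and 0.45 in control (SE 0.16, adjusted p = 0.063 by limma). The control difference passed when replicate 1 of control at 48 h was left out (0.61, adjusted p = 0.030) or replicate 1 of CsA at 48 h (0.45, adjusted p = 0.040), in the same limma fit. Leaving out that CsA array did not change the control difference, only the spread that all arrays share. In control 203751_x_at differed by 0.41 and 214326_x_at by 0.42, neither of them called (adjusted p = 0.23 and 0.15 by limma). Without replicate 1 of control at 48 h, 1421 of the 10508 genes were called between the times in control.

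BATF3, a subunit without an activation domain that pairs with JUN proteins and is known from dendritic cells, read 7.46, 7.66 and 7.42 in CsA at 48 h and 8.02, 7.91 and 7.56 in control at 48 h. At 12 h it read 7.26, 7.48 and 7.69 in CsA and 7.64, 7.76 and 7.87 in control. Its levels at the times overlapped, with log2 differences between 48 h and 12 h of 0.04 under CsA (adjusted p = 0.88 by limma) and 0.07 in control (adjusted p = 0.76 by limma). By arrays that do not overlap between the times, FOSL1 was the 1 of 6 tested subunits lower under CsA, where 18.9% of all genes were, and FOSL1 and JUNB were the 2 lower in control, where 25.2% of all genes were. JUND was the 1 of 6 higher in control, where 24.9% of all genes were, and 0 of 6 were higher under CsA, where 16% of all genes were.

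The comparison of CsA with control asks whether CsA altered the use of these subunits at each time. With limma, 0 of the 6 tested subunits and 0% of the 10508 genes were called at 12 h, and 0 of 6 and 0% at 48 h. At an unadjusted p under 0.05, 1.31% of genes passed at 12 h and 2.52% at 48 h, and 0 of the 6 subunits did at either time. All differences of subunits at 12 h had an adjusted p of 1.00 by limma, and all at 48 h had one of 0.9994 by limma. With the numbered pair as a block, which the pairing check within each time allows, 0.0285% of genes were called at 12 h and 0% at 48 h, and again no subunit was. At an unadjusted p under 0.05 in that blocked fit, 3 of the 6 subunits passed at 48 h (FOSL2, JUN and BATF3), where 12.3% of all genes did, and 1 of 6 at 12 h (BATF3), where 7.28% did.

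Read by numbered pair, 2 subunits were lower under CsA in all 6 pairs of both times, BATF3 and FOSL2 (on 218880_at), that is 2 of 6, where 3.84% of all genes tested were. BATF3 differed by -0.57, -0.24 and -0.14 at 48 h and by -0.38, -0.29 and -0.19 at 12 h, as CsA minus control in pairs 1, 2 and 3. FOSL2 differed by -0.37, -0.24 and -1.06 at 48 h and by -0.22, -0.10 and -0.25 at 12 h. The FOSL2 difference was below 0.4 in size in 5 of the pairs and largest in pair 3 at 48 h. No other FOSL2 probe set was lower under CsA in all 6 pairs. In pair 2 at 12 h 205409_at differed by 0.13 and 218881_s_at by 0.01. In pair 3 at 48 h 225262_at differed by 0.22 and 228188_at by 0.60.

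The fitted log2 difference of BATF3 was -0.32 at 48 h (SE 0.15, 95% interval -0.65 to 0.02) and -0.29 at 12 h (SE 0.15, 95% interval -0.62 to 0.05). Blocked by pair, its unadjusted limma p was 0.016 at 48 h and 0.024 at 12 h, and the adjusted limma p was 0.37 and 0.60. For FOSL2 the fitted difference was -0.56 at 48 h (SE 0.31, 95% interval -1.24 to 0.13) and -0.19 at 12 h (SE 0.31, 95% interval -0.88 to 0.49). Blocked by pair, its adjusted limma p was 0.36 at 48 h and 0.87 at 12 h. Without CsA replicate 3 at 48 h the FOSL2 difference at 48 h was -0.18, and on probe set 228188_at it was 0.17, so neither its size nor its sign held across these choices.

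**Figure D4:**
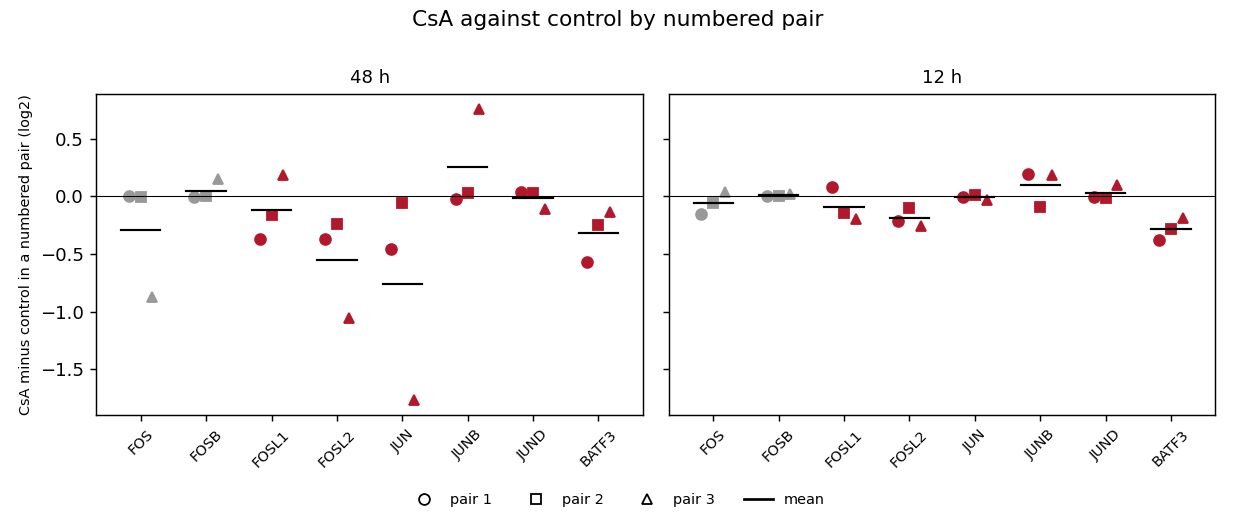
CsA minus control, in log2 units, for each AP-1 subunit in each numbered pair, with 48 h on the left and 12 h on the right black bars at the mean and a line at 0; FOS and FOSB, which were not tested, are in grey. BATF3 and FOSL2 (on 218880_at only) lie below 0 in all 6 pairs, and at 48 h JUN in pair 3 is -1.77 while its other pairs are -0.45 and -0.05.

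At 48 h the subunits lower under CsA in all 3 pairs were FOSL2, JUN and BATF3, 3 of 6, where 16.2% of all genes tested were. At 12 h they were FOSL2 and BATF3, 2 of 6, where 22.5% of all genes were. None of the 6 was higher in all 3 pairs at 48 h, where 13.4% of all genes were, or at 12 h, where 18.9% were. JUN differed by -0.45, -0.05 and -1.77 at 48 h and by -0.0028, 0.016 and -0.027 at 12 h. Pair 3 carried most of the difference at 48 h, on this and on the other JUN probe sets: it was -2.11 on 201466_s_at, -2.04 on 201465_s_at and -2.07 on 213281_at. In the first and second pairs 201466_s_at gave -0.55 and -0.47, 201465_s_at gave -0.32 and -0.33, and 213281_at gave 0.04 and 0.23.

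The fitted JUN difference at 48 h was -0.76 (SE 0.35, 95% interval -1.53 to 0.01), a 1.69-fold lower signal. Blocked by pair the unadjusted limma p was 0.033 and the adjusted limma p 0.38. Without control replicate 3 at 48 h it was -0.38. At 12 h the difference was -0.0047 (SE 0.35, 95% interval -0.77 to 0.77). That SE comes from 1 spread over all 12 arrays, whereas the SD at 12 h was 0.038 in CsA and 0.044 in control.

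FOSL1, JUNB and JUND showed no difference of one direction between CsA and control. FOSL1 differed by -0.37, -0.16 and 0.19 in the pairs at 48 h and by 0.08, -0.14 and -0.20 at 12 h. JUNB differed by -0.02, 0.03 and 0.76 at 48 h and by 0.20, -0.09 and 0.19 at 12 h. JUND differed by 0.04, 0.03 and -0.11 at 48 h and by -0.0012, -0.01 and 0.10 at 12 h, over both times the narrowest range of the 6.

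The fitted 95% interval for FOSL1 was -1.16 to 0.93 at 48 h and -1.13 to 0.95 at 12 h. For JUNB it was -0.41 to 0.92 at 48 h and -0.57 to 0.77 at 12 h, and for JUND -0.37 to 0.34 at 48 h and -0.33 to 0.38 at 12 h. These intervals, like those of BATF3, FOSL2 and JUN, take 1 spread from all 12 arrays. The wider spread at 48 h therefore enters those at 12 h. Blocked by pair, the FOSL1 interval was -0.39 to 0.17 at 48 h and -0.37 to 0.19 at 12 h. For JUNB it was -0.12 to 0.63 and -0.28 to 0.47, and for JUND -0.19 to 0.16 and -0.15 to 0.20. The blocked fit also shares its spread between the times. Differences within these blocked intervals are not excluded by 3 arrays a group. The change in the CsA difference between the times, tested as an interaction, was -0.75 for JUN (SE 0.49), -0.36 for FOSL2 (SE 0.44) and 0.16 for JUNB (SE 0.43), and each had an adjusted p of 0.9999 by limma. For FOSL1 it was -0.03, for JUND -0.04 and for BATF3 -0.03, and 0% of all genes tested were called in this interaction (1.54% at an unadjusted p under 0.05).

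Ordered by group mean, FOSL1 was lowest in CsA at 48 h (5.55) and control at 48 h (5.66) and higher in CsA at 12 h (8.28) and control at 12 h (8.37). Only the step between CsA at 12 h and control at 48 h exceeded the larger SD of its neighbours without overlap of arrays. For FOSL2, JUN, JUNB, JUND and BATF3 the arrays of every pair of neighbours in the order overlapped. BATF3 was lowest in both CsA groups (7.51 at 48 h, 7.47 at 12 h) and higher in both control groups (7.83 at 48 h, 7.76 at 12 h). JUND was highest in both 48 h groups (12.14 in CsA, 12.15 in control) and lower in both 12 h groups (11.73 in CsA, 11.70 in control).

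The other genes of the pathway were taken as 6 lists of 95 genes. Their counts with time are read against all genes tested, of which 6.77% were called higher and 7.58% lower at 48 h under CsA, and 12.5% higher and 13.7% lower in control. Among partner bZIP genes, whose proteins pair with AP-1 subunits or compete for their sites, 7 of 13 were tested, and with time 2 were called higher and 1 lower under CsA and 3 higher and 1 lower in control. ATF3, a stress-induced bZIP partner of JUN, averaged 10.39 ± 2.03 in CsA at 48 h and 7.50 ± 0.62 in CsA at 12 h, and 11.87 ± 0.29 in control at 48 h and 6.51 ± 0.82 in control at 12 h (SD, n = 3 each). It was higher at 48 h by 2.89 under CsA (adjusted p = 0.044 by limma) and by 5.35 in control (adjusted p = 0.0025 by limma). MAFF, a small MAF protein, was higher by 0.76 under CsA and 1.17 in control, and ATF7, an ATF2 relative, fell by 0.69 under CsA and fell by 0.51 in control. MAF was higher by 0.99 in control, and under CsA it differed by 0.38 and was not called (adjusted p = 0.32 by limma). The list's median was 0.50 under CsA and 0.86 in control, where the median of all genes was 0.01 and 0.0076.

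Among AP-1 target genes 17 of 27 were tested, with 1 called higher and 3 lower at 48 h under CsA and 2 higher and 4 lower in control. Over all genes 6.77% were called higher and 7.58% lower under CsA, and 12.5% higher and 13.7% lower in control, so the counts of higher target genes are near those shares. CCND1, which encodes cyclin D1, fell by 1.99 under CsA and fell by 2.28 in control. PLAUR, the urokinase receptor, fell by 1.81 under CsA and fell by 1.87 in control, and EZR, which encodes ezrin, fell by 0.48 under CsA and fell by 0.56 in control. HMGA1 fell by 0.83 in control, and VEGFA and TNC, the genes of vascular endothelial growth factor A and tenascin C, were higher by 2.25 and 0.64 in control. Under CsA HMGA1 differed by -0.31, VEGFA by 1.37 and TNC by 0.20, none of them called (adjusted p = 0.25, 0.057 and 0.35 by limma). TGFB1 was higher by 0.77 under CsA, and in control, where it was not called, it averaged 9.32 at 48 h and 9.01 at 12 h. The list's median was -0.48 under CsA and -0.56 in control.

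Among kinases and promoter factors upstream of AP-1, 18 of 22 were tested and 1 was called in each direction under CsA and in control, no larger a share than over all genes (6.77% higher and 7.58% lower under CsA, 12.5% higher and 13.7% lower in control). MEF2A, a factor that acts on the JUN promoter, was higher by 1.00 under CsA and 1.36 in control, and ELK3, an ETS factor of serum response elements, fell by 1.08 under CsA and fell by 1.05 in control. Among turnover and co-activator genes, all 10 were tested, with 0 called higher and 1 lower under CsA and 1 higher and 2 lower in control, within 1 gene of the all-gene shares just given. CUL1, a scaffold of ubiquitin ligases, fell by 0.47 under CsA and fell by 0.52 in control, RBX1 fell by 1.08 in control and ITCH, a ubiquitin ligase for JUN proteins, was higher by 0.81 in control. Under CsA RBX1 differed by -0.86 and ITCH by 0.87, neither of them called (adjusted p = 0.063 and 0.055 by limma).

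Of 19 other immediate early genes 12 were tested, with 0 called higher and 2 lower at 48 h under CsA and 0 higher and 3 lower in control, where 7.58% of all genes were called lower under CsA and 13.7% in control. IER5 and IER2 fell by 0.71 and 0.66 under CsA and fell by 0.76 and 0.71 in control, while SGK1, a kinase gene induced by serum and glucocorticoids, fell by 2.09 in control. Under CsA SGK1 differed by -1.39 and was not called (adjusted p = 0.10 by limma). A call with time in CsA only or in control only is no difference between them, and no gene was called in the interaction. Of the 4 NFAT genes listed 2 were tested, NFATC1 and NFATC3, and 0 were called. Among these calls in control, those of ATF3, MAFF, MEF2A, CUL1, EZR, VEGFA, HMGA1 and IER5 held in all 20 alternatives, and under CsA that of MEF2A did. Each other call was lost in at least 1 alternative. For the time comparisons the block was not the numbered pair of CsA and control. It joined arrays of the same number at 48 h and 12 h, which did not deviate together. With this block, the adjusted p by limma under CsA was 0.074 for ATF3, 0.11 for MAFF, 0.063 for ELK3, 0.058 for EZR, 0.082 for TGFB1, 0.056 for CCND1 and 0.079 for IER2. The block thus ended these calls under CsA, while ITCH was called higher there (adjusted p = 0.018 by limma). The block left 0 partner genes called higher and 1 lower under CsA, and 0 target genes higher and 1 lower, and in control it changed no count of the 6 lists. Without the block, the call under CsA was lost in 11 of the 12 limma fits that left out 1 array for ATF3 (adjusted p up to 0.15), in 10 for TGFB1, 9 for CCND1, 8 for ELK3 and 7 for MAFF. In control it was lost in 9 of the 12 for ITCH, and for MAF without control replicate 2 at 48 h or at 12 h, and on its most variable probe set MAF differed by -0.34.

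Between CsA and control no gene of the 6 lists was called at either time. The median of the partner bZIP genes was -0.27 at 48 h, with 0 of 7 above 0, and 0.17 at 12 h, with 5 of 7 above 0, while the median of all genes was -0.02 at 48 h and -0.01 at 12 h. Of all 10508 genes tested, 4761 were above 0 at 48 h and 4755 at 12 h. The 7 partner genes were read on the same arrays and are not independent. The other lists had medians between -0.11 and -0.0066 at 48 h and between -0.05 and 0.03 at 12 h. The member with the largest moderated statistic at 48 h was ATF7 among partners (-0.27), MAPK3 among upstream genes (0.19), FBXW7 among turnover genes (-0.24), HMGA1 among targets (0.48), IER3 among immediate early genes (-0.39) and NFATC3 among NFAT genes (-0.08), none of which passed. At 12 h it was JDP2 (0.46), MEF2A (0.30), FBXW7 (-0.35), VEGFA (0.41), ZFP36 (-0.17) and NFATC3 (0.16), none of which passed.

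Over the 12 arrays the genes whose signal ran most like that of FOSL1 were SOWAHC, EVA1A and XRCC6, with Pearson r of 0.993, 0.991 and 0.990. For FOSL2 they were RABEP2 (0.961), NUFIP1 (0.956) and MICALL1 (0.955), and for JUN they were MALT1 (0.943), OSMR (0.935) and ASAP2 (0.921). For JUNB they were LSM4 (0.986), AGPAT2 (0.980) and BST2 (0.968), for JUND LINC01139 (0.944), ARHGEF28 (0.940) and CITED2 (0.919), and for BATF3 ZNF346 (0.887), SKIC2 (0.882) and ZFR2 (0.762). Among the subunits themselves the closest pair was FOSL1 with JUNB (r = 0.80), and FOSL2, on 218880_at only, ran with BATF3 (0.65) and opposite to JUNB (-0.65). CsA replicate 3 at 48 h was the lowest array on 218880_at (7.69) and the highest for JUNB (7.86). The FOSL2 probe set 228188_at was lower on all 48 h arrays than on all 12 h arrays, and its correlations were not computed. These 12 points share 2 times and numbered pairs, so the values describe these arrays and carry no test.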

How the data were processed

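RNA of HK-2 cells was measured on 12 one-colour human expression arrays of 54675 probe sets, 3 in each of 4 groups. The deposited values are log2 signals from GCRMA, per the submitters' processing notes (version not given in the sources used here), read as log2 from their range of 0.68 to 16.03, and they were used without further scaling. GCRMA subtracts background by probe sequence and normalizes between arrays, so low values are compressed and levels are relative. The number of arrays limits the precision. GEO's platform annotation gave 1 symbol to 41091 probe sets, several to 1801 and none to 11721, and 62 were control probe sets; 0 symbols needed updating. A gene with several was read from its brightest on average. Genes above 4 on all 3 arrays of at least 1 group entered limma 3.58.1 under R 4.3.3 (lmFit, eBayes, 4 group means, 8 residual degrees of freedom), called at a Benjamini-Hochberg adjusted p under 0.05, and the fit was tested on simulated data. The simulated noise was independent between arrays and had the same SD in all groups. That test therefore does not cover the shared deviations of these arrays or their wider spread at 48 h. Other steps used Python 3.11.15.

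The labels call the replicates biological and do not say what separated them, and p-values measure the spread between these arrays. Same-numbered CsA and control arrays deviated together, with correlations of deviations of 0.78, 0.54 and 0.74 among the 48 h arrays, against 0.37, 0.53 and 0.59 among the 12 h arrays, so the replicate number was fitted as a block beside the fit without it. Between the times same-numbered arrays did not: the correlations were 0.23, -0.14 and 0.05 in CsA and 0.02, -0.02 and 0.06 in control. The block of the time comparisons still joined same-numbered arrays of the 48 h and 12 h groups, within CsA and within control.

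The members and gene lists were chosen with earlier results of these data known. All members are named; of the lists, genes called in a time comparison, and for CsA against control the gene with the largest moderated statistic, are named, with the 3 genes most correlated with each member. Alternatives were the block, the moderation, the filter, scaling, the probe set and leaving out each array.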

Additional observations from a re-analysis of the deposited data

How the results depend on the processing

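FOSL1 kept its lower call at 48 h in every alternative, -3.21 to -2.21 under CsA and -3.03 to -2.31 in control when 1 array was left out, and no subunit was called between CsA and control in any. As FOSL1 has 1 probe set, its signal could not change with the choice of probe set. With the replicate block, 3 genes were called at 12 h between CsA and control. Blocking by number across the times gave 968 between the times under CsA, against 1508 without it. With the arrays of 1 time only the block gave 5 at 12 h between CsA and control. Adding trend and robust moderation, chosen after seeing the data, gave 154, VEGFA among them (adjusted p = 0.020 by limma). The block changed no call of a subunit, and its effect on the list genes stands with them. Without the filter on low values 1 gene was called at 12 h, and 988 between the times under CsA. Leaving out 1 array gave 432 (without CsA replicate 3 at 12 h) to 3885 genes (without CsA replicate 3 at 48 h) between the times under CsA. In control it gave 1322 (without control replicate 3 at 12 h) to 4039 (without CsA replicate 3 at 48 h), where the count with all arrays was 2756. From 1 to 2 subunits were called in each. The mean of all probe sets and the most variable probe set gave 2 subunits in each, FOSL2 being the second. The share of all genes called in those settings is not given here. The most variable probe set was picked by its variance over arrays of both times, so that choice itself favours a call with time.

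Signs changed under other choices as follows, and the cause was not tested. FOSL2 between the times in control was -0.65 as the mean of its probe sets, -1.87 on its most variable one, -0.72 on 218881_s_at and -1.14 on 225262_at; its CsA difference at 48 h was 0.17 on 228188_at, and its interaction 0.29 there, 0.17 on 218881_s_at and 3e-04 on 225262_at. JUN at 12 h was 0.0026 with arrays centred on their median, 0.0077 after quantile normalization and 0.012 on 213281_at, and between the times in control -0.24 on 201466_s_at. JUND at 48 h was 0.014 with centred arrays, 0.034 as a mean, 0.054 on 203751_x_at and 0.097 on 214326_x_at, where its interaction was 0.030. The FOSL1 interaction was 0.0071 after quantile normalization, NFATC3 at 48 h 0.21 and MAF in control -0.34 on their most variable probe sets.

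Leaving out 1 array also changed the sign of values near 0. The CsA difference at 48 h ranged from -0.59 to 0.41 for FOSL1, -0.16 to 0.47 for JUNB, -0.17 to 0.12 for JUND and -0.15 to 0.031 for NFATC3. At 12 h it ranged from -0.22 to 0.070 for FOSL1, -0.028 to 0.017 for JUN, -0.0064 to 0.20 for JUNB and -0.045 to 0.083 for JUND. The interaction ranged from -0.50 to 0.50 for FOSL1, -0.72 to 0.013 for FOSL2, -0.26 to 0.37 for JUNB, -0.20 to 0.091 for JUND and -0.17 to 0.075 for BATF3. Between the times, FOSL2 under CsA ranged from -0.43 to 0.30, BATF3 under CsA from -0.068 to 0.14, BATF3 in control from -0.029 to 0.20 and JUN in control from -0.33 to 0.41. With 3 arrays a group, 1 array at 48 h decided several values, and FOS and FOSB were too dim to compare.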
